A study of Mus musculus with 12 samples.

Results

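Genes of the blood and lymphatic vessel lining were followed in colon RNA of mice with chemically induced colitis. The 10 genes were taken by symbol from the authors' table of 55335 genes, and were chosen with earlier results of these data known. They were the blood endothelial genes Pecam1, Cdh5, Kdr, Esam, Cldn5, Vwf and Plvap, the lymphatic endothelial genes Lyve1 and Prox1, and Madcam1, the addressin of gut venules. Of the 10, 8 had a mean of at least 1 FPKM (a level scaled to transcript length and to sequencing depth) over the 12 libraries and entered the tests, while Vwf and Prox1 lay below that level. RNA came from the colons of wild-type mice in 4 groups of 3 libraries: DSS with thymopentin, DSS with normal saline, TNBS with thymopentin, and TNBS with normal saline. DSS (dextran sulfate sodium) is a polymer that injures the colon epithelium, TNBS (trinitrobenzene sulfonic acid) is a hapten that provokes an immune reaction in the colon wall, and thymopentin is a pentapeptide modelled on the thymic protein thymopoietin. Every group had colitis, so no level stands for a healthy colon, and the sources used here state no dose, timing, strain, sex or age.

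Endothelial cells line all vessels and control what leaves the blood. Blood endothelium is held together by adherens junctions, whose cadherin is encoded by Cdh5, and by tight junctions, in which Cldn5 supplies the main claudin of endothelium and Esam an adhesion molecule. Lymphatic endothelium takes its identity from the transcription factor Prox1 and carries the hyaluronan receptor Lyve1, which tissue macrophages of some kinds also express. Vessels of the gut mucosa display the product of Madcam1, which binds the integrin of gut-homing lymphocytes and lets them enter the mucosa.

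Start-site sequences are shown for 3 of the 4 genes that have an entry in the RefSeq promoter table of build GRCm38.p6, each from 250 bases before to 50 bases after the start. The other 6 genes, Pecam1, Cdh5, Esam, Vwf, Plvap and Lyve1, have no entry, and the promoters of Prox1 are not printed. Cldn5 was chosen because it was called lower with thymopentin in DSS colitis, Madcam1 because it had the largest fold there, and Kdr as a comparison that was not called. Capitals mark CCAAT in Cldn5, an NF-kB type motif (GGGAAA, any 2 bases, then CCC) in Madcam1 and GGAA in Kdr, each searched on both strands, so that CCAAT also appears as ATTGG and GGAA as TTCC.
Cldn5 (chr16:18776597-18776896, plus strand): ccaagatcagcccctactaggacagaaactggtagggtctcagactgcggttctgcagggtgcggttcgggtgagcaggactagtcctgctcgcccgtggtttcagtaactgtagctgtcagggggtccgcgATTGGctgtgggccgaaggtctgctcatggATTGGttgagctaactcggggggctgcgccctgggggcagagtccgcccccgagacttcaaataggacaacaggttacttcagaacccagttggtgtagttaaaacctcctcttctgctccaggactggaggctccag
Madcam1 (chr10:79664309-79664608, plus strand): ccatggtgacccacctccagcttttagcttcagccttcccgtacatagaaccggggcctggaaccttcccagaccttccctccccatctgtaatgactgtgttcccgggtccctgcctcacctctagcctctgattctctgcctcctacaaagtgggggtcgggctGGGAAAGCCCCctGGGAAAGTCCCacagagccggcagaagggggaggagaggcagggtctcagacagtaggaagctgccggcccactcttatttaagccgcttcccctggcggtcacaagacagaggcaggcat
Kdr (chr5:75978406-75978705, minus strand): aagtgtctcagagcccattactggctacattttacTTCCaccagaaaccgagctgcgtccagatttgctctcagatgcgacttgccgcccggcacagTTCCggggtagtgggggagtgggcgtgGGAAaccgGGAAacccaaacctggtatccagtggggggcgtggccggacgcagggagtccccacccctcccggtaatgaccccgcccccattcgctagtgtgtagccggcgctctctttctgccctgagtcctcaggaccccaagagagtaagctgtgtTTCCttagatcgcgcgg
The Cldn5 window held 2 CCAAT boxes, a motif present in 37.4% of 32851 promoters of the same length, and no GGAA. The Madcam1 window held 2 matches of the NF-kB type motif, which 0.581% of those promoters held. That motif was chosen after the sequence had been seen, and each of its matches contains a GGAA. GGAA, the core of the sites bound by ETS factors of endothelium, matched 5 times in the Kdr window and 9 times in the Madcam1 window, against a median of 3 matches per promoter, and 96.0% of promoters held it. TATAAA was absent from the windows of Cldn5, Madcam1 and Kdr and present in 13.6% of promoters. A match of letters describes the window and is not evidence of binding.

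Summed FPKM ranged from 384431 to 532510 per library, and 13160 to 13805 genes reached 1 FPKM. Read totals were not among the sources used here. All libraries held abundant RNA of colon epithelium, whose 7 markers summed to between 3193 and 4718 FPKM. The vessel genes were low beside it, and all 10 were above 0 in every library. Some libraries stood apart within their groups. TNBS saline 3 had almost no RNA of lymphoid follicles, with a summed level of 3.86 FPKM over 10 markers, against 89.9 and 165 FPKM in TNBS saline 1 and 2. TNBS thymopentin 3 was like it, at 4.20 FPKM, against 62.7 and 106 FPKM in TNBS thymopentin 1 and 2. DSS saline 1 had the lowest level of its group for 9 of the 10 vessel genes, all but Madcam1. Nothing in the labels says whether the libraries of a group came from separate animals handled separately, so p-values measure the spread between these libraries.

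**Figure D1:**
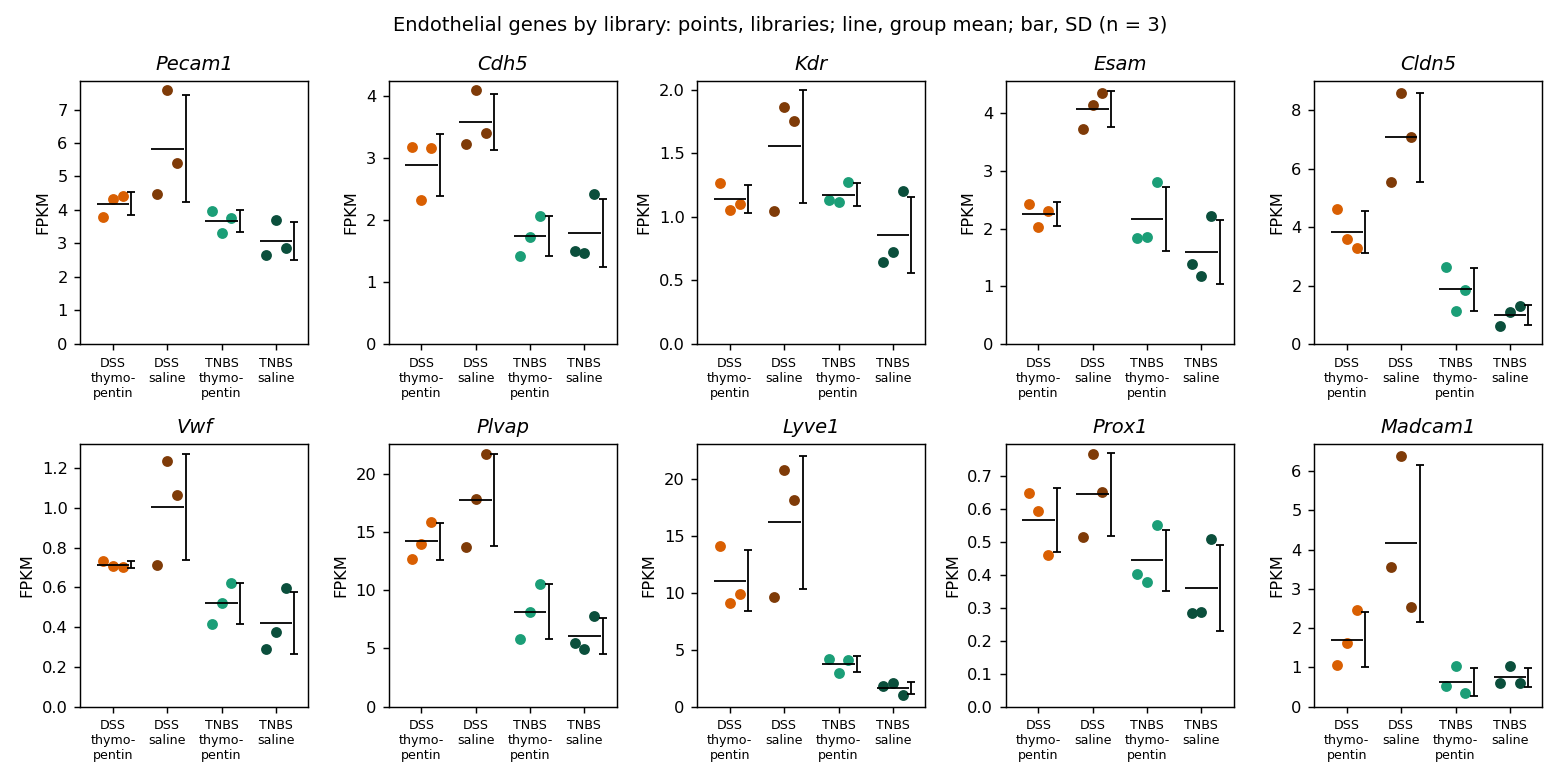
FPKM of the 10 vessel genes in each of the 12 colon libraries, with the groups in the order DSS thymopentin, DSS saline, TNBS thymopentin and TNBS saline. Points are libraries, horizontal lines are group means and bars are SD (n = 3). DSS saline has the highest mean of each gene, and Lyve1 averages 16.2 FPKM there, against 1.63 FPKM in TNBS saline.

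The order of levels was similar in all groups. Plvap, which forms the diaphragms of fenestrated capillaries, had the highest mean of the 7 blood endothelial genes in every group, and supplied 33.8% to 51.5% of their summed FPKM over the 12 libraries. Vwf, which encodes the clotting factor carrier stored in endothelial granules, was the lowest of the 7 in every group. FPKM are scaled to transcript length, which allows this comparison between genes. Mean Plvap was 14.2 ± 1.60 FPKM in DSS thymopentin, 17.7 ± 3.98 FPKM in DSS saline, 8.15 ± 2.38 FPKM in TNBS thymopentin and 6.08 ± 1.52 FPKM in TNBS saline (SD, n = 3 each). The Vwf means were 0.715 ± 0.0173, 1.01 ± 0.267, 0.520 ± 0.104 and 0.421 ± 0.158 FPKM in the same order of groups.

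Thymopentin was first compared with saline in DSS colitis. Here 2 junction genes, Esam and Cldn5, were lower in thymopentin colons, at about the same fold. Of the 8 tested vessel genes 2 were called lower and none higher, where a call is an adjusted p under 0.05 in limma over all 13794 tested genes, with FPKM taken as log2(FPKM + 1). Among all tested genes 4.3% were called lower and 12.7% higher, 17.0% in all. In bulk tissue, fewer endothelial cells and less RNA per endothelial cell cannot be told apart.

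Esam had 2.43, 2.02 and 2.31 FPKM in DSS thymopentin colons, against 3.73, 4.15 and 4.35 FPKM in DSS saline colons. The groups did not overlap, and each was tight. Its log2 fold change was -0.64 ± 0.16 (SE, adjusted p = 0.0230 by limma). Cldn5 had 4.63, 3.60 and 3.28 FPKM in DSS thymopentin colons, against 5.55, 8.60 and 7.10 FPKM in DSS saline colons. Again every thymopentin library lay below every saline library, with DSS saline 1 the nearest. The log2 fold change was -0.73 ± 0.21 (SE, adjusted p = 0.0415 by limma). The call of Esam was lost without DSS saline 3, DSS thymopentin 2 or DSS thymopentin 3, and with no filter on low genes (adjusted p up to 0.0797 over its alternatives). The call of Cldn5 was lost without DSS saline 2 or 3, DSS thymopentin 2 or 3, TNBS saline 2 or TNBS thymopentin 3, and under 3 other settings (limma adjusted p up to 0.115).

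The other junction and adhesion genes were lower by less. Pecam1, which encodes the adhesion molecule CD31 and is carried by platelets and some leukocytes too, had 3.79, 4.34 and 4.43 FPKM in DSS thymopentin colons, against 4.49, 7.60 and 5.39 FPKM in DSS saline colons. The groups did not overlap, but the gap between the nearest libraries was small. Its log2 fold change of -0.37 did not pass (95% interval -0.72 to -0.02, limma adjusted p = 0.125). Cdh5 had 3.17, 2.31 and 3.16 FPKM in DSS thymopentin colons, against 3.23, 4.09 and 3.40 FPKM in DSS saline colons, again without overlap and again without a call (-0.24, interval -0.59 to 0.11). Pecam1 passed after median-ratio rescaling and after quantile normalization.

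Madcam1 had the largest fold of means of the 10 genes in this comparison. It had 1.05, 1.62 and 2.45 FPKM in DSS thymopentin colons, against 3.55, 6.39 and 2.54 FPKM in DSS saline colons. The groups did not overlap, although DSS thymopentin 3 and DSS saline 3 were nearly equal. The 10 follicle markers summed to 31.5, 137 and 112 FPKM in the same DSS thymopentin libraries, against 108, 204 and 73.9 FPKM in the DSS saline libraries, so the libraries lowest and highest in Madcam1 were also those for follicle RNA, whose part in the Madcam1 values was not tested. The thymopentin mean was 0.411 of the saline mean, and the log2 fold change, -0.89 ± 0.28, was just outside the threshold (SE, adjusted p = 0.0501 by limma). Without DSS saline 3, and under both rescalings, it passed (lowest adjusted p of 0.0268). In the authors' deposited table Madcam1 was listed at -1.38 on the log2 scale, with an FDR of 0.00214, and Cldn5 at -1.0 with an FDR of 0.000175. Reads recovered from that table were 58, 76 and 142 for Madcam1 in DSS thymopentin colons, against 213, 355 and 142 in DSS saline colons. For Cldn5 they were 252, 165 and 188, against 328, 471 and 388. The authors' table held only genes they had selected, 2326 for DSS, and none of the other 8 vessel genes. Of the genes followed here that it held, Cldn5 had the smallest fold, while Ppbp was listed at an FDR of 0.214. Absence from it therefore does not show that a gene failed the authors' test.

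The remaining vessel genes overlapped between thymopentin and saline in DSS colitis. Kdr, the main receptor of VEGF-A on blood endothelium, had 1.26, 1.05 and 1.10 FPKM in thymopentin colons, against 1.05, 1.86 and 1.75 FPKM in saline colons. Plvap had 12.7, 13.9 and 15.9 FPKM in thymopentin colons, against 13.7, 17.8 and 21.7 FPKM in saline colons. For Kdr and Plvap the thymopentin libraries lay within or below the saline range, and their log2 fold changes were -0.24 and -0.29 (limma adjusted p = 0.282 and 0.393). Lyve1 had 14.1, 9.13 and 9.90 FPKM in thymopentin colons, against 9.64, 20.8 and 18.1 FPKM in saline colons. DSS saline 1 sat among the thymopentin libraries, and the log2 fold change was -0.47 (95% interval -1.07 to 0.13). Without DSS saline 1 it was -0.78, with a limma adjusted p of 0.0550. Lyve1 passed with array weights alone among the alternatives (limma adjusted p = 0.0436). Vwf had 0.735, 0.706 and 0.703 FPKM in thymopentin colons, against 0.713, 1.24 and 1.07 FPKM in saline colons. Prox1 had 0.650, 0.595 and 0.460 FPKM in thymopentin colons, against 0.516, 0.769 and 0.653 FPKM in saline colons, and neither Vwf nor Prox1 was called in a fit without the filter.

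In all, 5 of the 10 genes did not overlap and were lower with thymopentin in DSS (Pecam1, Cdh5, Esam, Cldn5 and Madcam1), and none was without overlap and higher. Among all tested genes 11.5% were without overlap and lower, and 28.3% were without overlap and higher. The median log2 fold change of the 8 tested vessel genes was -0.42, where the median of all tested genes was 0.12, so the vessel genes lay 0.54 below it. The scaling moves this background: 1753 genes were called higher and 593 lower as deposited, 800 higher and 1019 lower after median-ratio rescaling, and 944 higher and 854 lower after quantile normalization. All 8 tested vessel genes had negative values under each of these scalings.

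**Figure D2:**
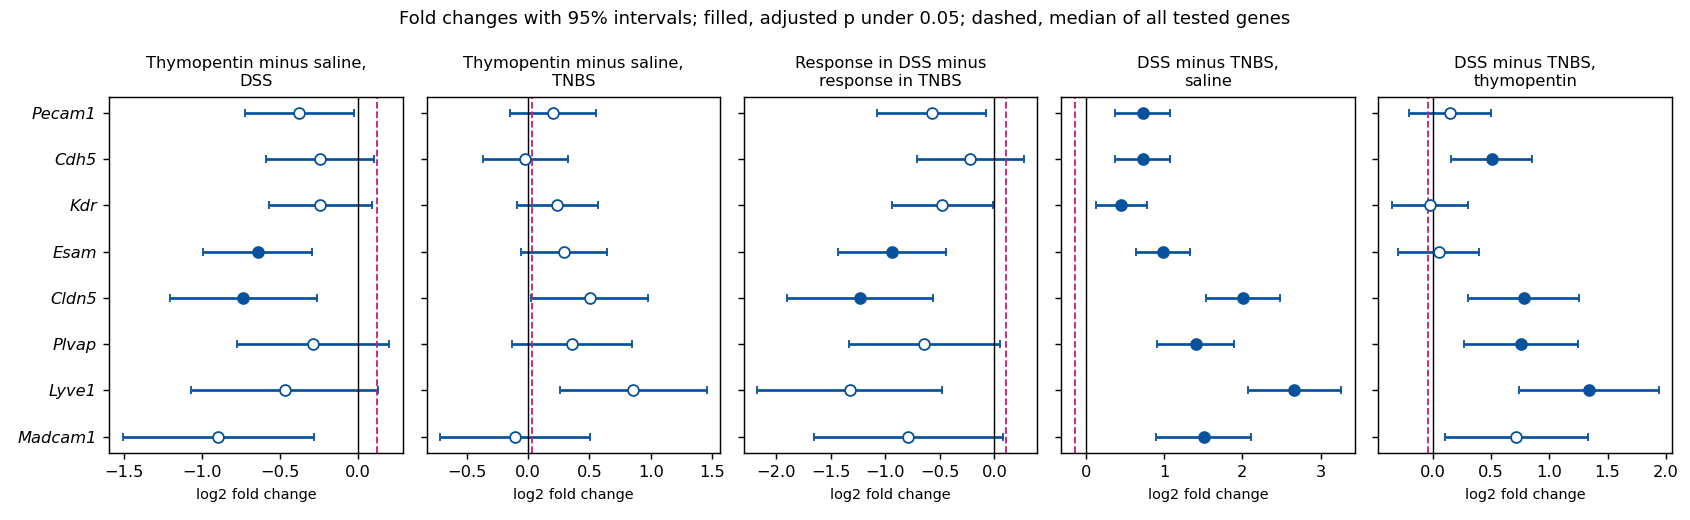
Log2 fold changes of the 8 tested vessel genes on the log2(FPKM + 1) scale in 5 comparisons, with 95% intervals. Filled points have an adjusted p under 0.05, and the dashed line is the median of all tested genes. Filled points are Esam and Cldn5 in the DSS response and in the difference of responses, all 8 genes in DSS against TNBS under saline, and 4 genes under thymopentin.

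Other vessel genes and neighbouring cell types were read beside these. Of 24 further endothelial genes 14 were tested, and 1 was called lower with thymopentin in DSS: Rasip1, a regulator of vessel lumen formation, with a log2 fold change of -0.46 ± 0.10 (SE, adjusted p = 0.0174 by limma, lost without DSS thymopentin 2 at up to 0.0619). The other 13 did not pass, and the median of the 14 was -0.34. Pericyte genes, expressed by the cells that wrap capillaries, gave 3 lower calls among 6 tested. Kcnj8, a potassium channel subunit of pericytes, had 3.83, 2.64 and 3.44 FPKM in thymopentin colons, against 12.1, 8.50 and 9.82 FPKM in saline colons. Its log2 fold change of -1.37 ± 0.20 (SE, adjusted p = 0.00254 by limma) stayed called in every alternative in which it was tested. The calls of Abcc9, the partner subunit of that channel, and of Mcam, an adhesion molecule of pericytes and endothelium, at -0.66 and -0.90, were lost in 9 and 10 alternatives (limma adjusted p up to 0.134).

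Of 9 further lymphatic genes 6 were tested, and Pdpn, the podoplanin of lymphatic endothelium and of stromal cells, was called lower with thymopentin in DSS. It had 7.55, 5.21 and 6.37 FPKM in thymopentin colons, against 11.3, 9.10 and 9.73 FPKM in saline colons, a log2 fold change of -0.59 ± 0.12 (SE, adjusted p = 0.0132 by limma) that passed in all alternatives run. Ccl21a, the chemokine by which lymphatic vessels draw dendritic cells, had 93.5, 109 and 109 FPKM in thymopentin colons, against 200.05, 250.2 and 200.1 FPKM in saline colons. These groups were far apart, but its limma value of -1.05 did not pass (adjusted p = 0.148). In the authors' deposited table Ccl21a was listed at -1.19 with an FDR of 6.12e-22. Of the genes that act around Madcam1, Nkx2-3, a homeobox factor needed for its expression in mouse gut, was called lower at -0.58 ± 0.16 (SE, adjusted p = 0.0355 by limma), a call lost in 6 alternatives (those without any 1 DSS saline library, without DSS thymopentin 1 or 2, and with no filter, at up to 0.113). Itga4, which encodes a chain of the integrin that binds the addressin, had a log2 fold change of 0.0066.

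Vcam1, Sele and Selp, adhesion molecules of inflamed venules, were each listed as lower in the authors' deposited table, at -1.05, -3.26 and -1.63 on the log2 scale and at FDR values of 1.55e-06, 0.0109 and 7.69e-05. Sele and Selp were under 0.5 FPKM in every library and did not enter the limma fit. Of the 6 adhesion and venule genes listed, 3 were tested (Icam1, Vcam1 and the venous factor Nr2f2), and none passed in limma. Icam1 had -0.37, Vcam1 -0.70 and Nr2f2 a positive value of 0.30, and in the difference of responses 2 of the 3 were positive.

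RNA of several other cell types differed between the same groups. The 7 smooth muscle markers summed to 1522 to 2282 FPKM in DSS thymopentin colons, against 3399 to 3956 FPKM in DSS saline colons, and 3 of the 7 were called lower. The 8 macrophage markers summed to 164 to 206 FPKM in DSS thymopentin colons, against 226 to 337 FPKM in DSS saline colons, with 1 of 5 tested called lower. The 8 pericyte markers summed to 32.0 to 50.0 FPKM, against 71.7 to 92.4 FPKM, and the 6 fibroblast markers to 118 to 136 FPKM, against 138 to 167 FPKM. Of the fibroblast markers 2 were called lower, Dcn at -0.51 and Lum at -0.54 (limma adjusted p = 0.0103 and 0.0238). The Dcn call held in all alternatives run, and the Lum call was lost in 4 (without DSS saline 1 or 3 or DSS thymopentin 2, and from the DSS libraries alone, up to 0.0863). The 9 enteroendocrine markers summed to 224 to 227 FPKM, against 355 to 380 FPKM, with 2 of 8 tested called lower. Sst, which encodes somatostatin, was at -1.43 (limma adjusted p = 0.00222, called in all alternatives run) with a difference of responses of -1.80 (adjusted p = 0.0105), and Gcg, which encodes proglucagon, was at -0.56 (adjusted p = 0.0441, lost without any 1 DSS library, among 11 alternatives). Of 7 epithelial markers 2 were called higher, with sums of 3792 to 4386 FPKM against 3376 to 4112 FPKM. Each of these 3 muscle calls (Tagln, Des and Cnn1), the macrophage call (Mrc1) and the 2 epithelial calls (Cdh1 and Epcam) was lost without DSS thymopentin 1 or 2, among other settings (limma adjusted p up to 0.202). No marker of these 6 lists was at 0 in a whole group. The part of muscle, macrophages, pericytes, fibroblasts, enteroendocrine cells and epithelium in the vessel values was not tested. The 6 adipocyte markers summed to 2.79, 0.468 and 15.2 FPKM in DSS thymopentin colons, against 62.8, 117 and 13.4 FPKM in DSS saline colons. In TNBS the sums were 5.94, 3.01 and 9.63 FPKM with thymopentin, against 5.38, 0.936 and 68.6 FPKM with saline. None of the 3 tested was called in limma in either response. The authors' deposited table listed Cidec and Plin1 lower in DSS, at FDR values of 1.04e-11 and 0.118. The part of adipocytes in the vessel values was not tested. Platelets also carry Pecam1, Vwf and Esam, and their 5 markers summed to 8.65 to 9.33 FPKM in DSS thymopentin colons, against 10.2 to 12.6 FPKM in DSS saline colons, with Gp9 listed at 0 in all 3 thymopentin libraries.

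**Figure D3:**
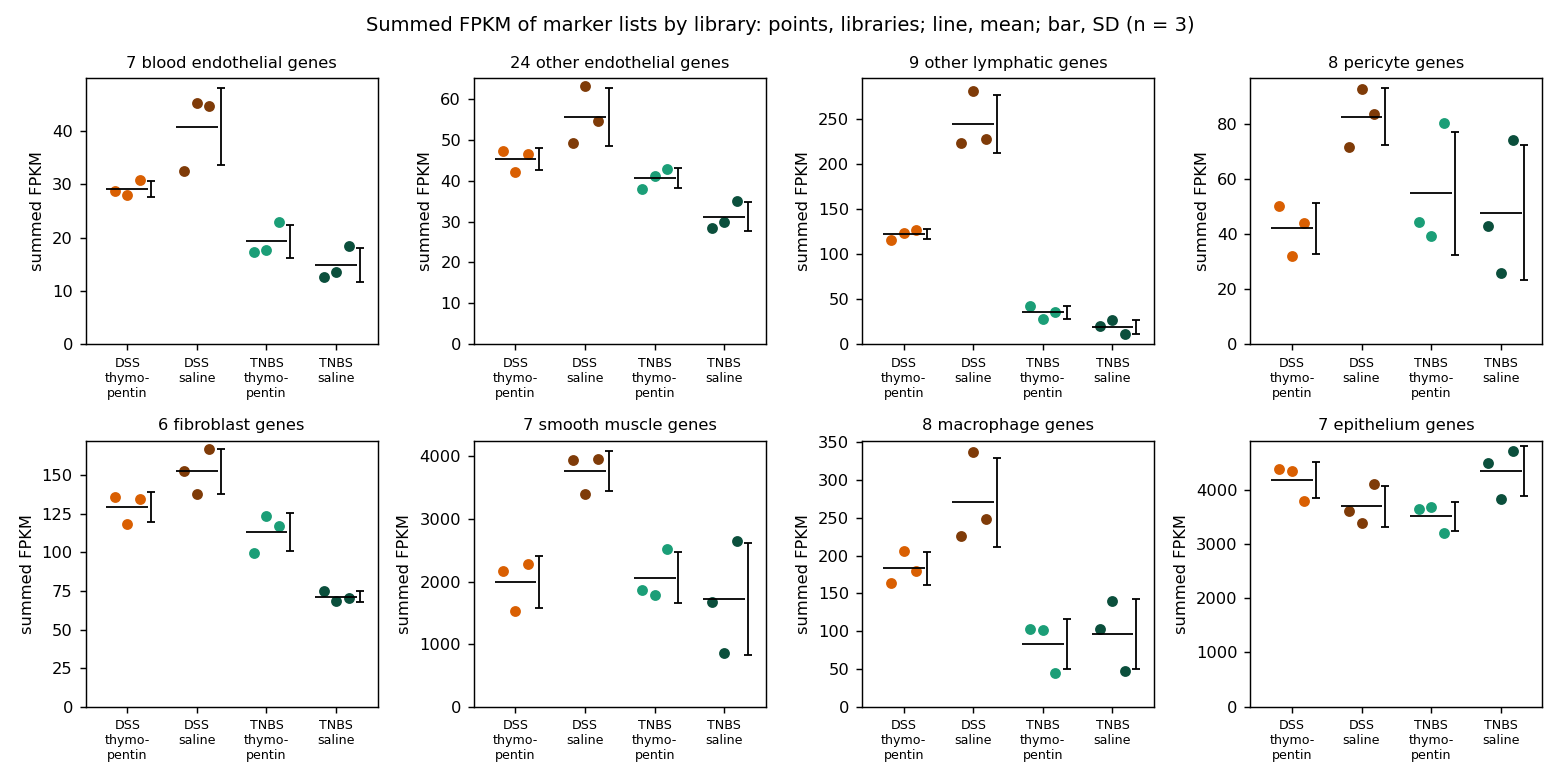
Summed FPKM of 8 marker lists in each library, with points for libraries, lines for group means and bars for SD (n = 3). The 7 blood endothelial genes sum to 28.0 to 30.9 FPKM in DSS thymopentin, 32.5 to 45.3 FPKM in DSS saline, 17.2 to 22.9 FPKM in TNBS thymopentin and 12.5 to 18.4 FPKM in TNBS saline. Smooth muscle and pericyte markers have their highest group means in DSS saline. For pericytes, TNBS thymopentin 3 (80.2 FPKM) and TNBS saline 3 (74.2 FPKM) lie above DSS saline 1 (71.7 FPKM).

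In TNBS colitis thymopentin was compared with saline in the same way. No vessel gene passed, although Lyve1 was higher in each thymopentin library than in any saline library. Of the 8 tested genes 0 were called, against 0.283% of all tested genes called higher and 0.384% called lower, 0.667% in all. At an unadjusted p under 0.05 there were 2, Lyve1 and Cldn5, where 1748 of all 13794 tested genes were. With array weights limma called these 2 genes (adjusted p = 0.0335 for Lyve1 and 0.0306 for Cldn5), and 1055 genes in all in place of 92.

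Lyve1 had 4.18, 2.93 and 4.07 FPKM in TNBS thymopentin colons, against 1.78, 2.07 and 1.03 FPKM in TNBS saline colons. The 2.29-fold higher mean corresponded to a log2 fold change of 0.86 ± 0.27 (SE, adjusted p = 0.208 by limma). Lyve1 was the 1 gene of the 10 whose TNBS groups did not overlap, where 12.1% of all tested genes were without overlap and higher and 6.75% without overlap and lower. Without TNBS saline 3, which had the lowest value, the log2 fold change was 0.68. In the authors' deposited table Lyve1 was listed at 1.17 with an FDR of 0.00331, and its recovered reads were 508, 335 and 475 in TNBS thymopentin colons, against 224, 224 and 135 in TNBS saline colons. That table held 1173 selected genes for TNBS and no other gene of the 10. It also held Cidec at an FDR of 0.326, so absence from it does not show a failed test.

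Of the 7 blood endothelial genes all but Cdh5 had higher means with thymopentin in TNBS, and none was called. Cldn5 had 2.62, 1.14 and 1.84 FPKM in thymopentin colons, against 0.626, 1.08 and 1.29 FPKM in saline colons. Esam had 1.84, 1.86 and 2.81 FPKM in thymopentin colons, against 1.38, 1.18 and 2.22 FPKM in saline colons. TNBS saline 3 reached into the thymopentin range for each of them, and their log2 fold changes were 0.50 and 0.30 (limma adjusted p = 0.363 and 0.489). Kdr had 1.13, 1.11 and 1.28 FPKM in thymopentin colons, against 0.648, 0.726 and 1.20 FPKM in saline colons. Plvap had 5.80, 8.09 and 10.6 FPKM in thymopentin colons, against 5.45, 4.96 and 7.81 FPKM in saline colons. Saline 3 was again the highest of its group, and without it the log2 fold changes of Kdr, Plvap and Esam were 0.37, 0.53 and 0.46 in place of 0.24, 0.36 and 0.30. Pecam1 had 3.96, 3.30 and 3.75 FPKM in thymopentin colons, against 2.64, 3.71 and 2.88 FPKM in saline colons (0.20, 95% interval -0.15 to 0.55).

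Cdh5 and Madcam1 had values near 0 in TNBS. Cdh5 had 1.42, 1.72 and 2.06 FPKM in thymopentin colons, against 1.49, 1.46 and 2.42 FPKM in saline colons, a log2 fold change of -0.021 (95% interval -0.37 to 0.33) that became 0.13 without TNBS saline 3. Madcam1 had 0.514, 1.03 and 0.359 FPKM in thymopentin colons, against 0.610, 1.03 and 0.592 FPKM in saline colons, a value of -0.11 (interval -0.72 to 0.51). These intervals leave room for changes of over 0.3 in either direction. Vwf had 0.416, 0.521 and 0.624 FPKM in thymopentin colons, against 0.290, 0.377 and 0.596 FPKM in saline colons, and Prox1 had 0.403, 0.380 and 0.552 FPKM, against 0.284, 0.286 and 0.511 FPKM.

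Other lymphatic genes were read beside Lyve1 in TNBS colitis. All 6 tested had positive log2 fold changes, with a median of 0.52 against 0.03 for all tested genes, and none passed in limma. Positive values were not particular to lymphatic genes. All 7 smooth muscle, 6 fibroblast and 6 pericyte genes tested were positive too, with medians of 0.52, 0.56 and 0.22. Of 7 epithelial genes 0 were positive, with a median of -0.30. Mmrn1, a secreted multimerin of lymphatic endothelium, had 2.65, 1.17 and 2.36 FPKM in thymopentin colons, against 0.422, 0.528 and 0.233 FPKM in saline colons. Flt4, the receptor of VEGF-C on lymphatic vessels, had 0.950, 0.491 and 0.926 FPKM in thymopentin colons, against 0.249, 0.328 and 0.194 FPKM in saline colons. Reln, which encodes reelin and lay under 1 FPKM throughout, had 0.249, 0.139 and 0.335 FPKM in thymopentin colons, against 0.0448, 0.107 and 0.0309 FPKM in saline colons. For these 3 genes the groups did not overlap, and the authors' deposited table listed them at 2.30, 1.51 and 1.99 on the log2 scale, with FDR values of 1.56e-07, 0.000395 and 0.00473. Pdpn had 4.99, 4.90 and 4.60 FPKM in thymopentin colons, against 3.29, 2.61 and 3.13 FPKM in saline colons, and its value of 0.54 did not pass (limma adjusted p = 0.0923). Prox1, the defining gene of the lineage, had a fold of means of 1.23, with groups that overlapped.

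Because some macrophages carry Lyve1, their genes were set beside it. The 8 macrophage markers summed to 44.1 to 102 FPKM in TNBS thymopentin colons, against 47.5 to 140 FPKM in TNBS saline colons, and none of 5 tested was called. Of the 5 tested macrophage genes 2 had positive log2 fold changes, and the median was -0.037. For Mrc1 and Cd163, a pair of resident macrophage genes picked after their values were seen, the TNBS groups did not overlap. Over all tested genes 12.1% were higher without overlap. Mrc1, the mannose receptor, had 1.61, 1.41 and 1.32 FPKM in TNBS thymopentin colons, against 1.05, 1.09 and 0.879 FPKM in TNBS saline colons. Cd163, a haemoglobin scavenger receptor, had 0.265, 0.175 and 0.366 FPKM, against 0.0557, 0.0955 and 0.0663 FPKM, and was listed in the authors' deposited table at 1.69 with an FDR of 0.00550. The part of macrophages in the Lyve1 values was not tested. Of 6 fibroblast markers Dcn and Lum, proteoglycans of collagen matrix, were called higher, and the sum of the list was 99.4 to 124 FPKM, against 68.4 to 75.2 FPKM. The Dcn call was lost in a fit of the TNBS libraries alone and in 1 with the replicate block (limma adjusted p up to 0.0837), and the Lum call in 11 alternatives, among them each that left out a TNBS library and those without DSS thymopentin 3 or DSS saline 3 (adjusted p up to 0.119).

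**Figure D4:**
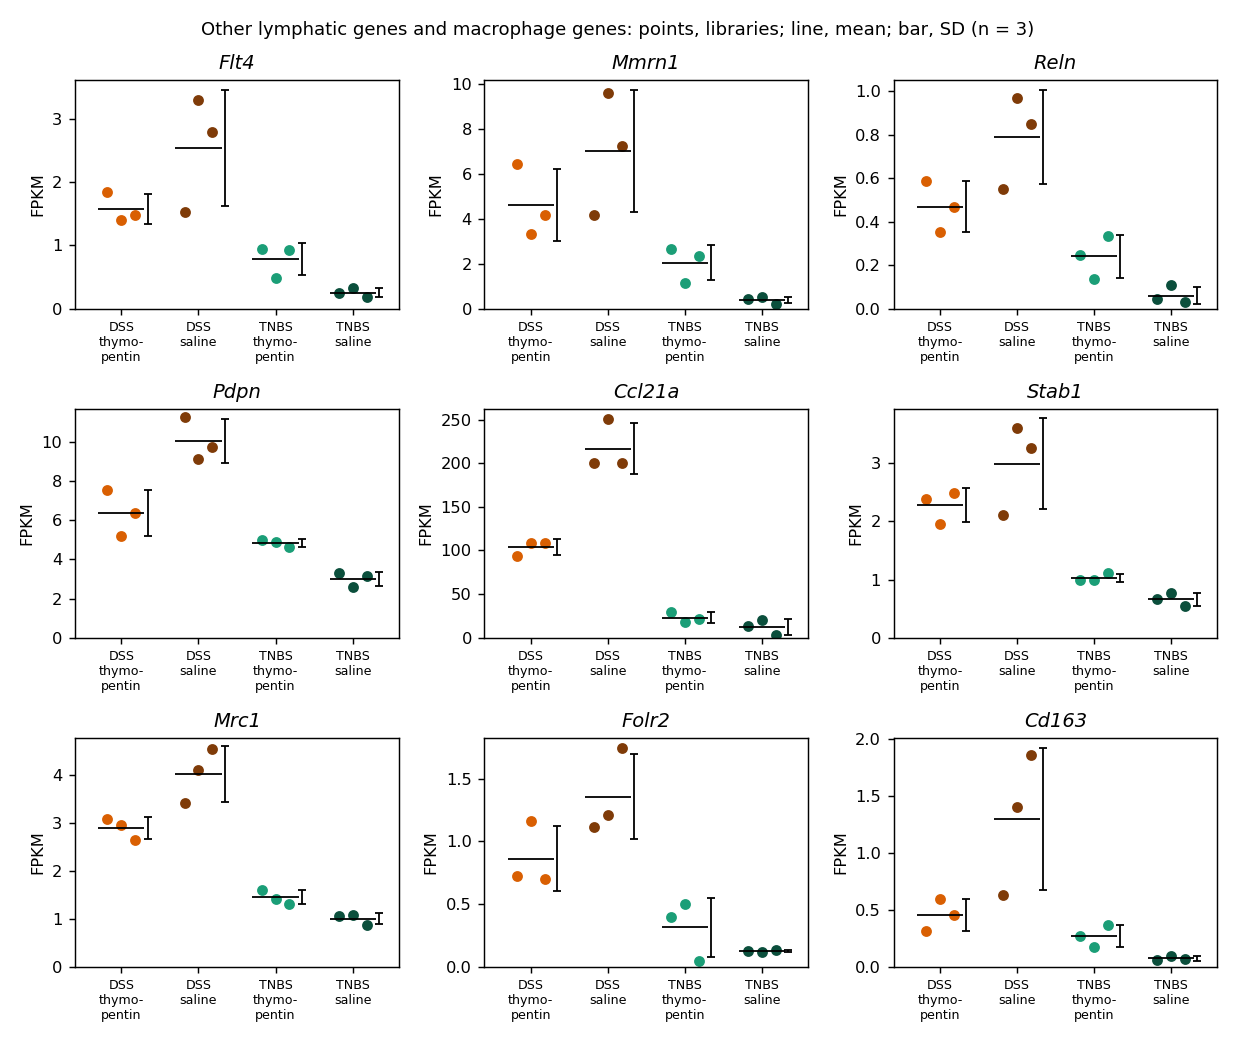
FPKM of 5 further lymphatic genes (Flt4, Mmrn1, Reln, Pdpn and Ccl21a), of Stab1, which both lymphatic endothelium and macrophages express, and of the macrophage genes Mrc1, Folr2 and Cd163, by library. Points are libraries, lines group means and bars SD (n = 3). Flt4, Mmrn1, Reln, Pdpn, Stab1, Mrc1 and Cd163 are higher in every TNBS thymopentin library than in any TNBS saline library, and all 9 genes have their highest mean in DSS saline. Over all tested genes 12.1% were higher without overlap in that TNBS comparison. Of the 5 macrophage genes tested 2 had positive log2 fold changes in it, with a median of -0.037.

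The difference between the responses, that in DSS minus that in TNBS, was tested in the same model. It was negative for all 8 tested vessel genes, and 2 passed: Esam at -0.94 ± 0.22 (SE, adjusted p = 0.0427 by limma) and Cldn5 at -1.23 ± 0.30 (SE, adjusted p = 0.0452). Among all tested genes 2.42% were called lower and 2.73% higher, 5.15% in all. Over all genes there were 376 higher and 334 lower calls as deposited and 223 higher and 437 lower after median-ratio rescaling, and the median of all tested genes was 0.11 as deposited. The value for Lyve1 was -1.33 ± 0.38 (SE, adjusted p = 0.0737 by limma), which passed without DSS saline 1 (-1.64, adjusted p = 0.0217) and with array weights. The Esam call was lost without any 1 library except TNBS saline 3, and with no filter (limma adjusted p up to 0.104). The Cldn5 call was lost without DSS saline 2 or 3, DSS thymopentin 2 or 3, TNBS saline 1 or 2, or TNBS thymopentin 1 or 3, with no filter, with a pseudocount of 0.1, and with the replicate number as a block (adjusted p = 0.10 with the block, and up to 0.108 over all alternatives). Madcam1 had a difference of -0.79 (95% interval -1.66 to 0.08), Plvap -0.64, Pecam1 -0.58, Kdr -0.48 and Cdh5 -0.22. In the fit without a filter Vwf had -0.32 and Prox1 -0.16, and neither passed (limma adjusted p = 0.429 and 0.685). Outside the 10 genes, Pdpn at -1.13 (limma adjusted p = 0.0105), Kcnj8 at -1.72 (0.0117) and Dcn at -1.34 (0.00348) were called.

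The models themselves were compared under saline, DSS against TNBS. This comparison shares the DSS saline and TNBS saline libraries with those above, so its values are not independent of theirs. Every tested vessel gene was higher in DSS colitis. Of the 8 tested, 8 were called higher, where 15.2% of all tested genes were called higher and 31.5% lower, 46.6% in all. The share of higher calls over all genes depends on scaling, with 2090 higher and 4341 lower as deposited, 3031 and 2920 after median-ratio rescaling, and 2564 and 3398 after quantile normalization. The median of all tested genes was -0.14 as deposited, and the median of the 8 vessel genes was 1.19.

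Lyve1 differed most, at 9.96-fold of means and a log2 fold change of 2.67 ± 0.27 (SE, adjusted p = 8.56e-05 by limma): its lowest DSS saline library, at 9.64 FPKM, lay above its highest TNBS saline library, at 2.07 FPKM. Cldn5 was 7.09-fold higher, with 5.55 to 8.60 FPKM in DSS saline and 0.626 to 1.29 FPKM in TNBS saline, and Madcam1 was 5.58-fold higher, with 2.54 to 6.39 FPKM against 0.592 to 1.03 FPKM. These 3 genes and Plvap, at 2.92-fold, had log2 fold changes of at least 1.40. Esam, Cdh5 and Pecam1 were 2.56-fold, 1.99-fold and 1.89-fold higher, with log2 fold changes of 0.99, 0.72 and 0.73. Kdr was 1.81-fold higher and the 1 gene of the 10 whose groups overlapped (DSS saline 1 at 1.05 FPKM, TNBS saline 3 at 1.20 FPKM), and its call (limma adjusted p = 0.0281) was lost without DSS saline 2 or 3 or TNBS saline 1 or 2, and under 2 other settings (up to 0.101). The other 7 calls held in every alternative in which the gene was tested. Of the 10 vessel genes 9 were higher without overlap, where over all tested genes 18.8% were higher and 37.7% lower without overlap. Below the filter, Vwf was 2.39-fold and Prox1 1.79-fold higher in means, and in the fit without a filter Vwf was called (0.49, limma adjusted p = 0.0135) and Prox1 was not (0.28, adjusted p = 0.0641).

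Further vessel lists were mostly, but not all, on the same side under saline. Of 14 tested endothelial genes 12 were called higher in DSS and 2 lower, and the 2 lower were Clec14a, a lectin of vessel sprouts, and Rgcc, a regulator of the cell cycle. Clec14a had 1.66, 2.25 and 1.81 FPKM in DSS saline, against 2.55, 2.59 and 3.13 FPKM in TNBS saline, and Rgcc had 2.69, 3.96 and 2.67 FPKM, against 5.55, 5.81 and 7.92 FPKM. Examples of the higher genes are Tie1 and Tek, the angiopoietin receptor pair, at log2 fold changes of 1.10 and 1.06, and Sox18, a transcription factor of vessel formation, at 1.24 (limma adjusted p = 0.000383, 0.000550 and 8.52e-05). All 6 tested lymphatic genes were called higher, with Ccl21a at 4.33, Mmrn1 at 2.47, Pdpn and Flt4 at 1.46, Stab1 at 1.25 and Itga9 at 0.76. Of the VEGF ligands and receptors 5 were tested, and Vegfc, the ligand of Flt4, and Flt4 itself were called higher, while Vegfa was not called. Of the angiopoietin and Notch genes 6 were tested, of which 3 had positive values, with a median of 0.050. Besides the higher calls of Tie1 and Tek, Jag1, a ligand of Notch receptors, was called lower at -0.41 (limma adjusted p = 0.0460), a call lost in 12 alternatives (among them both rescalings and those without any 1 DSS saline library, TNBS saline 1 or 3, DSS thymopentin 1 or 3 or TNBS thymopentin 2, up to 0.184). Nkx2-3 was higher at 1.37, Vcam1 at 1.41 and Icam1, a leukocyte ligand of vessels and other cells, at 0.87 (limma adjusted p = 0.000165, 0.000622 and 0.0384), the call of Icam1 being lost in 6 alternatives that include those without DSS saline 1 or 2 or TNBS saline 1 or 3 (up to 0.135). All 5 tested macrophage markers, 6 of 7 smooth muscle markers and 5 of 6 pericyte markers were also called higher in DSS saline. So were 5 of 6 fibroblast markers, with Dcn at 2.11, and the platelet gene Pf4 at 1.60. Of 7 epithelial markers 4 were called lower. The calls of Cdh1 (-0.85) and Epcam (-0.54) held in every alternative, and those of Cldn7 and Vil1 were lost in 1 and 10. The macrophage sums were 226 to 337 FPKM against 47.5 to 140 FPKM, and the smooth muscle sums 3399 to 3956 FPKM against 856 to 2644 FPKM. The pericyte sums were 71.7 to 92.4 FPKM against 25.8 to 74.2 FPKM. The part of these cell types in the vessel values was not tested.

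The models were also compared under thymopentin, DSS against TNBS, where fewer vessel genes were called. The gap under thymopentin minus that under saline is the difference of responses tested above. Of the 8 tested vessel genes 4 were called higher in DSS thymopentin than in TNBS thymopentin: Lyve1 at 1.34 ± 0.27, Cldn5 at 0.78 ± 0.21, Plvap at 0.76 ± 0.22 and Cdh5 at 0.51 ± 0.16 (SE, limma, adjusted p = 0.00619, 0.0225, 0.0284 and 0.0362). Among all tested genes 11.0% were called higher and 16.5% lower, 27.5% in all. Lyve1 was 2.97-fold higher in means and held its call in every alternative run. Of 5 tested macrophage markers 4 were also called higher (Cd68 at 1.35, Csf1r at 0.78, Adgre1 at 0.73 and Mrc1 at 0.67), with list sums of 164 to 206 FPKM in DSS thymopentin against 44.1 to 102 FPKM in TNBS thymopentin, while none of the 7 smooth muscle and 6 pericyte genes tested was called. Of the 6 fibroblast genes tested only Dcn was called, higher at 0.77 (limma adjusted p = 0.000966). The platelet gene Pf4 was called higher at 1.01 (limma adjusted p = 0.00677). Both calls held in every alternative run. The part of macrophages, fibroblasts and platelets in the Lyve1 value was not tested. The call of Cldn5 was lost without DSS thymopentin 1 or 2 or TNBS thymopentin 2 or 3, that of Plvap without DSS thymopentin 2 or 3 or TNBS thymopentin 1 or 2, and that of Cdh5 without DSS thymopentin 1 or 3 or TNBS thymopentin 1 or 2, each also with no filter (adjusted p up to 0.120 in limma). Esam, Kdr and Pecam1 differed little between the models here, at 0.049 (95% interval -0.30 to 0.40), -0.023 (-0.35 to 0.31) and 0.15 (-0.20 to 0.50). Madcam1 was 2.69-fold higher in means without overlap, and its value of 0.72 did not pass (limma adjusted p = 0.0780). In the fit without a filter Vwf had 0.18 and Prox1 0.12, neither passing (limma adjusted p = 0.431 and 0.514). Of the other lists, 4 of 14 tested endothelial genes were called higher and 2 lower, namely Rgcc at -1.01 and Clec14a at -0.40, and 3 of 6 lymphatic genes were called higher, with Ccl21a at 2.15. In all, 6 of the 10 genes were higher without overlap (Cdh5, Cldn5, Vwf, Plvap, Lyve1 and Madcam1), where over all tested genes 18.7% were higher and 27.6% lower without overlap.

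Ratios of vessel genes within a library compare members with each other and do not depend on how libraries were scaled. The ratio of Esam to Cdh5, both expressed at endothelial junctions, was 0.765, 0.875 and 0.730 in DSS thymopentin colons, against 1.16, 1.01 and 1.28 in DSS saline colons. In TNBS it was 1.30, 1.08 and 1.36 in thymopentin colons, against 0.928, 0.807 and 0.918 in saline colons. The groups did not overlap in either model, and the thymopentin ratios were on the lower side in DSS and on the higher side in TNBS. The ratio of Cldn5 to Cdh5 was 1.46, 1.56 and 1.04 in DSS thymopentin colons, against 1.72, 2.10 and 2.09 in DSS saline colons, again without overlap. In TNBS that ratio overlapped, at 1.85, 0.664 and 0.890 in thymopentin colons and 0.420, 0.741 and 0.531 in saline colons. The separation depended on the denominator. As a percent of the summed FPKM of the 7 blood endothelial genes, Esam again did not overlap in DSS. It was 8.45, 7.24 and 7.47 with thymopentin, against 11.5, 9.16 and 9.73 with saline. In TNBS that percent overlapped (10.7, 10.5 and 12.3 against 11.0, 8.74 and 12.1). The percent for Cldn5 overlapped in DSS (16.1, 12.9 and 10.6 against 17.1, 19.0 and 15.9) and in TNBS.

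The ratio of Lyve1 to Pecam1 was 1.06, 0.887 and 1.08 in TNBS thymopentin colons, against 0.674, 0.557 and 0.358 in TNBS saline colons. In DSS it was 3.73, 2.10 and 2.24 in thymopentin colons and 2.15, 2.74 and 3.36 in saline colons, with overlap. Each DSS library thus had more Lyve1 per Pecam1 than any TNBS library. The ratio of Lyve1 to Prox1 averaged 24.5 ± 5.06 in DSS saline and 5.17 ± 2.77 in TNBS saline (SD, n = 3 each). Ratios were read after the fold changes were known and carry no test.

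**Figure D5:**
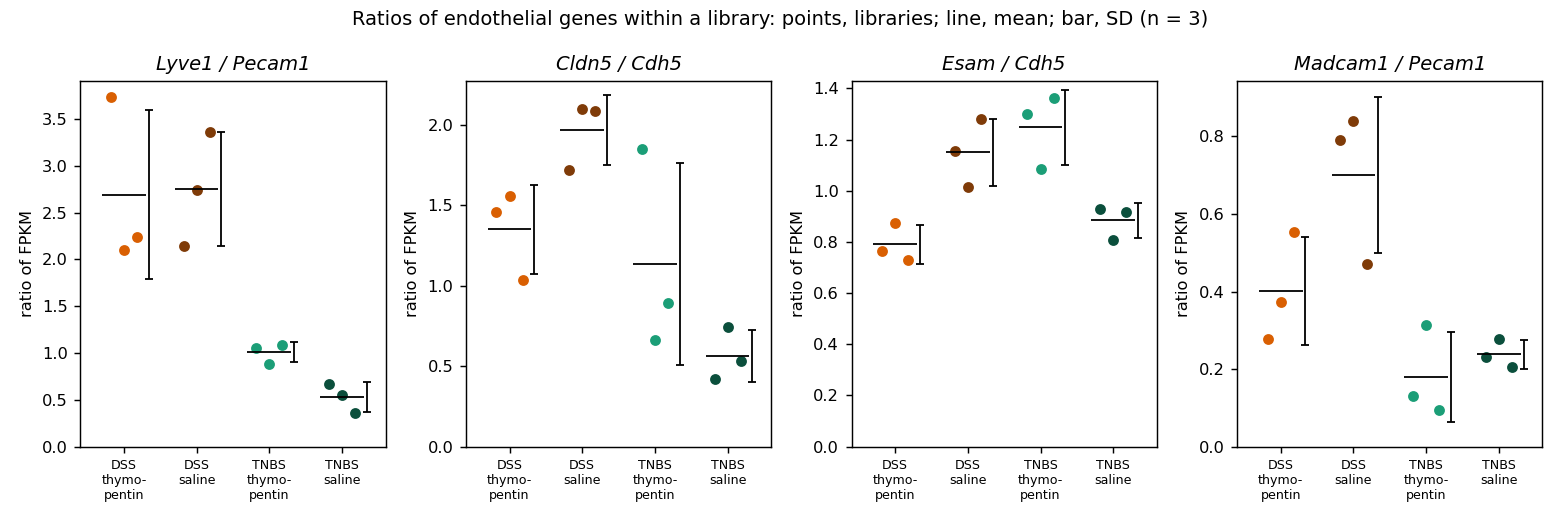
Ratios of FPKM between vessel genes within each library: Lyve1 to Pecam1, Cldn5 to Cdh5, Esam to Cdh5 and Madcam1 to Pecam1. Points are libraries, lines group means and bars SD (n = 3). Esam to Cdh5 is lower in DSS thymopentin (0.730 to 0.875) than in DSS saline (1.01 to 1.28) and higher in TNBS thymopentin (1.08 to 1.36) than in TNBS saline (0.807 to 0.928).

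How the genes varied together was described by Pearson's r of log2(FPKM + 1) over the 12 libraries, which share 4 group means. Across libraries every pair of the 10 genes had a positive r, from 0.53 for Kdr and Madcam1 to 0.95 for Cldn5 and Lyve1. With the group means taken off, pairs of blood endothelial genes had r from -0.075 for Pecam1 and Esam to 0.94 for Kdr and Vwf. Cdh5 and Esam had 0.85, while Cldn5 and Plvap had -0.021. With the blood endothelial genes Lyve1 then had values from -0.0028 for Esam to 0.59 for Pecam1, and Madcam1 from -0.35 for Esam to 0.59 for Pecam1.

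The genes most like the mean of the 7 blood endothelial genes over the 12 libraries were Rab34, Mmrn2, Rgl1, Mxra8 and Tgfbr3, with r from 0.97 to 0.98. Mmrn2, which encodes an endothelial matrix protein, had 2.10, 1.76 and 1.76 FPKM in DSS thymopentin, 2.32, 3.32 and 3.01 FPKM in DSS saline, 1.01, 0.747 and 1.35 FPKM in TNBS thymopentin, and 0.680, 0.574 and 1.15 FPKM in TNBS saline. Those most like Lyve1 were Stab1, Fmo2, Flt4, Mmrn1 and Dcn (r of 0.98 to 0.99), of which Flt4 and Mmrn1 are lymphatic genes, Stab1 is shared with macrophages and Dcn is a fibroblast gene. Those most like Madcam1 were Dram1, Ap1m1, Vcam1, an unnamed gene model and Strada (r of 0.95 to 0.97). Vcam1 had 1.78, 2.62 and 2.91 FPKM in DSS thymopentin, 4.05, 5.64 and 4.06 FPKM in DSS saline, 1.05, 1.14 and 0.563 FPKM in TNBS thymopentin, and 1.17, 1.68 and 0.547 FPKM in TNBS saline. With group means taken off, other genes led the lists: Rabac1, Kremen1, Bptf, Tmem200b and Lynx1 for the blood endothelial genes, Lox, Tmem143, Mfap1a, Tmem106b and Ctsl for Lyve1, and Snhg5, Faap24, Tcf3, an unnamed gene model and Gm5905 for Madcam1.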

How the data were processed

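Colon RNA of wild-type mice with colitis was sequenced as 12 libraries, 3 in each of 4 groups. These were strand-specific TruSeq libraries of TRIzol-extracted RNA per the labels' protocols. The authors deposited FPKM for 55335 genes. Per the submitters' processing notes the tools were FastQC, STAR 2.5, Cuffnorm and DESeq 1.22.1 with genome build mm9, and the sources used here name no gene models. Tables of selected genes, 1 for each colitis model, hold the authors' log2 fold change with its p-value and FDR, per the file headers. The per-library log2 values in those tables, deposited without a description, were taken as log2 of reads over a size factor plus 1, since 7326 of 7326 values of at most 30 reads came out whole within 0.01 reads. A count test was not run, because reads exist here only for genes the authors had selected.

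Genes with a mean of at least 1 FPKM over the 12 libraries (13794) were tested as log2(FPKM + 1), a scale that understates the change of low genes. A single linear model of the 4 groups, with 8 residual degrees of freedom, was fitted by limma 3.58.1 (R 4.3.3) with trended empirical Bayes, and was tested on simulated data. P-values are two-sided, adjusted by Benjamini-Hochberg over all tested genes within a comparison. With 3 libraries against 3 an exact permutation test cannot go below p = 0.1. Total reads per library are unknown here, so no counting interval is given. Python 3.11.15, pandas 2.3.3, numpy 2.4.6 and matplotlib 3.10.9 were used. Of the gene IDs 99.7% matched the reference names, and all 10 vessel genes matched by ID and symbol.

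Groups and replicate numbers came from the treatment labels and titles. Deviations from group means correlated at 0.124, 0.268 and 0.476 between same-numbered TNBS libraries, which meets the bar set for pairing, although TNBS thymopentin 1 correlated more with TNBS saline 2 (0.287) and the labels do not explain the numbers. The main model has no replicate block, and a fit with the block is an alternative. In DSS the values were -0.136, 0.0427 and -0.140, and the libraries share only a number. The vessel genes and the 19 gene lists were chosen with earlier results of these data known. All 10 vessel genes are named in each comparison, and called genes (up to 4 by p) from other lists, of which not all are named. Named outside that rule, after their values were seen, were genes in the authors' deposited tables and Ccl21a, Mrc1, Cd163, Itga4, Reln, Clec14a and Rgcc. Likeness was ranked by Pearson's r as described. Alternatives were no filter, a mean of at least 5 FPKM, a pseudocount of 0.1, median-ratio rescaling, quantile normalization, the groups of a comparison alone, a replicate block, array weights, and each library left out.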

Additional observations from a re-analysis of the deposited data

Results flagged for a closer look

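The response to thymopentin differed between the models for Esam and Cldn5 by a test of the difference itself. For Esam the response in DSS minus that in TNBS was -0.94 on the log2(FPKM + 1) scale, made up of -0.64 in DSS and 0.30 in TNBS (limma adjusted p = 0.0427 for the difference). For Cldn5 it was -1.23, made up of -0.73 in DSS and 0.50 in TNBS (limma adjusted p = 0.0452). All 3 DSS thymopentin libraries lay below all 3 DSS saline libraries for each gene, while the TNBS groups overlapped. With the replicate number as a block the difference for Cldn5 no longer passed (adjusted p = 0.10 by limma) and that for Esam did (0.0310). The Esam call was lost without any 1 library except TNBS saline 3, and the Cldn5 call without DSS saline 2 or 3, DSS thymopentin 2 or 3, TNBS saline 1 or 2, or TNBS thymopentin 1 or 3. Smooth muscle markers summed to 1522 to 2282 FPKM in DSS thymopentin and 3399 to 3956 FPKM in DSS saline, and to 1782 to 2525 FPKM in TNBS thymopentin and 856 to 2644 FPKM in TNBS saline. Their part in these differences was not tested.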

How the results depend on the processing

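Over the 40 fold changes of vessel genes, 679 alternative values kept their direction and their side of the threshold, 57 lost a call, 16 gained one and 10 changed sign. Many of these values could not change direction. The filters, the replicate block and the fit of a comparison's groups alone leave a fold change as it was. So does leaving out a library that is in neither of the 2 groups compared. Such settings can move only the adjusted p, so the count overstates how far directions were tried. Each change of sign was of a small value that was not called. Cdh5 in the TNBS response became 0.052 with array weights and lay between -0.11 and 0.13 with a library left out. Madcam1 in the TNBS response lay between -0.27 and 0.018 with a library left out. For DSS against TNBS under thymopentin, Kdr became 0.010 after median-ratio rescaling and lay between -0.064 and 0.011 with a library left out, and Esam between -0.023 and 0.19. The number of vessel genes called in the DSS response was 2, with 4 after median-ratio rescaling, 4 after quantile normalization, 1 with a pseudocount of 0.1, 0 with no filter, 0 at a mean of at least 5 FPKM (where Esam and Cldn5 are no longer tested) and 0 to 2 with a library left out. In the difference of responses it was 2, with 5 under array weights, 1 with a pseudocount of 0.1, 0 with no filter, 0 at a mean of at least 5 FPKM and 0 to 2 with a library left out. In the TNBS response it was 0, with 2 under array weights and 0 with any library left out. Under saline it was 8, with 2 at a mean of at least 5 FPKM (fewer genes tested) and 7 to 8 with a library left out. Under thymopentin it was 4, with 2 at a mean of at least 5 FPKM, 1 with no filter and 1 to 5 with a library left out. With the replicate block, which treats same-numbered libraries as pairs, 1 vessel gene was called in the DSS response and 1 in the difference, Cldn5 being lost in each (adjusted p = 0.0910 in the DSS response by limma), and no other vessel gene changed its call. Over all genes, the TNBS calls numbered 92, with 1055 under array weights, 44 with no filter, 7 from the TNBS libraries alone and 41 to 116 with a library left out. The DSS calls numbered 2346, with 3854 under array weights, 1447 at a mean of at least 5 FPKM and 923 to 2505 with a library left out. Calls of the difference numbered 710, with 2327, 385, 355 (no filter) and 176 to 764 under the same settings. Calls under saline numbered 6431, with 3661 at a mean of at least 5 FPKM and 5347 to 6434 with a library left out, and under thymopentin 3799, with 2052 to 3999. The cause of these changes was not tested. Read depth is unknown here, so the counting error of vessel genes near or under 1 FPKM, such as Vwf, Prox1, Kdr, and Madcam1 and Cldn5 in TNBS saline, could not be given.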
